A study of Noccaea caerulescens and Thlaspi montanum with 10 samples.

Results

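Leaf transcripts of the Viviez population of Noccaea caerulescens were compared with those of Noccaea montana, using the 4 libraries in the field leaf set that come from plants labelled as non-nickel-accumulators. These were chosen by their labels alone, 4 of the 10 libraries of the series, and every transcript with a value in all 4 was taken, which was 41841 of 41843 listed. Viviez leaves came from 2 individuals growing wild at Viviez (Aveyron, France), 141 m apart by their GPS labels. N. montana leaves, carrying the organism label Thlaspi montanum, came from 2 individuals 88.3 m apart at Suc de Clava (Ardeche, France), 209 km from Viviez. All 4 plants were collected in June, with the same day on their labels, were stabilised in RNAlater and received no treatment. The labels give the field sites as serpentine soil or a zinc mining site without saying which plant grew on which. Within the pair each species came from a single site, so species and site cannot be told apart here. Field leaves of N. caerulescens subsp. firmiensis, the nickel hyperaccumulator of the series, were collected in July at Puy de Wolf, 7.14 to 7.26 km from the Viviez plants, and are given beside the pair as a further relative (2 libraries). The 4 libraries of hydroponic plants were not analysed here.

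Noccaea is a genus of the cabbage family in which several members take up metals from the soil and store them in the shoot at levels toxic to most plants. In N. caerulescens the metals stored and the amounts differ between populations, and relatives within the genus differ in the trait as well. In this tissue such plants are known for high transcript levels of metal transporters and of enzymes that make metal-binding ligands. A comparison of plants that share the label of no nickel accumulation sets their leaf transcripts side by side without a labelled difference in that trait. Species, site, other metal traits and how well reads align may all be part of what it measures. The transcripts counted here carry contig numbers only and the files do not pair them with gene names, so no function is given to any of them and leaf identity could not be checked against marker genes.

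The Viviez libraries held 63042462 and 59687511 reads and the N. montana libraries 68439128 and 68408974 reads, counted on transcripts assembled from firmiensis. Levels are given in CPM, read counts scaled to library size and composition. For detection and presence they are scaled to library size alone. Viviez reads were the more concentrated: 922 ± 58 transcripts held 50% of the reads in Viviez and 1350 ± 7.07 did in N. montana (SD, n = 2). The 100 most abundant transcripts took 22.9% and 25.7% of reads in the Viviez libraries, against 18.2% and 18.8% in the N. montana libraries, so the plants did not overlap in this measure. Within these, the most abundant transcript alone took 3.48% and 7.12% in the Viviez libraries, against 1.61% and 1.11% in the N. montana libraries. Even numbers made up 52% and 53.1% of counts from 21 to 200 in the Viviez libraries, against 50.3% and 50.8% in the N. montana libraries, with 52.3% and 52.6% in the firmiensis libraries; such an excess can arise if both mates of a read pair are counted. Viviez replicate 2 carries the number 4 in its run label and the other 3 libraries the number 5.

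Individuals of the same plant divided their reads among transcripts in much the same way, and the 2 plants did not. Library against library, 63.4% to 64.8% of reads fell on the same transcripts in the 4 pairings of a Viviez with an N. montana leaf, against 88.8% between the Viviez individuals and 84.4% between the N. montana individuals. Between 41 and 49 of the 100 most abundant transcripts were shared across the plants, whereas 89 were shared within Viviez and 73 within N. montana. Among the 1000 most abundant, between 549 and 590 were shared across the plants, 858 within Viviez and 792 within N. montana. Viviez and firmiensis leaves, of the same species but collected a month apart, had 69.9% to 75.7% of reads on the same transcripts and shared 62 to 67 of the top 100. N. montana and firmiensis had 63.5% to 69.8% and 50 to 66.

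**Figure D1:**
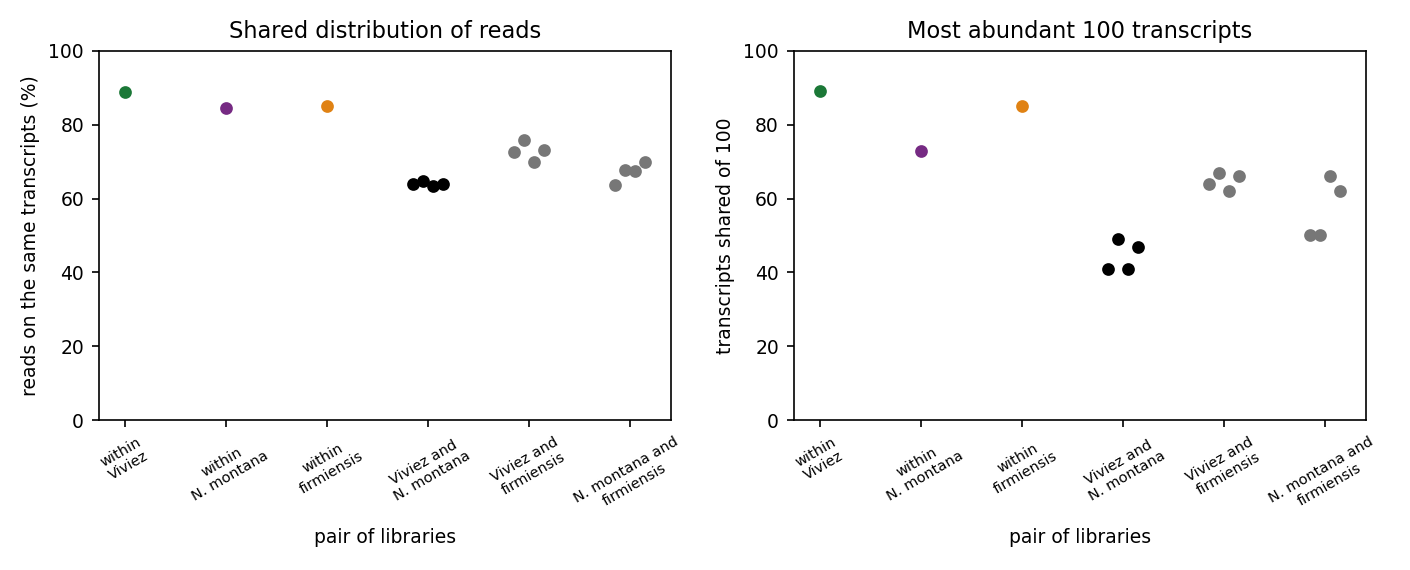
Likeness of pairs of libraries, as the percentage of reads that fall on the same transcripts (left) and as the number of the 100 most abundant transcripts shared (right), with 1 point per pair of libraries. The 4 pairs of a Viviez with an N. montana library lie between 63.4% and 64.8% and share 41 to 49 transcripts, below each pair from a single plant.

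Viviez leaves differed from N. montana leaves in 12078 of 32989 tested transcripts (36.6%), by edgeR's quasi-likelihood test with Benjamini-Hochberg adjusted p under 0.05. Of these, 5318 (16.1%) were higher and 6760 (20.5%) were lower in Viviez. In each of the 12078 the 2 Viviez values lay on one side of the 2 N. montana values, which was so in 75.3% of all tested transcripts. The differences spread over the whole range of sizes. By class of size, 1135 of 16082 tested transcripts were called under 2-fold (7.06%) and 3197 of 7290 from 2- to 4-fold (43.85%). From 4- to 8-fold it was 2505 of 3724 (67.3%), and from 8- to 32-fold 3258 of 3831 (85%). At 32-fold or more, 1983 of 2062 were called (96.2%). Transcripts that had no read in a plant were set at their bound against 3 reads. Among the calls, small differences leaned toward Viviez, with 670 higher and 465 lower under 2-fold. Large ones leaned toward N. montana, with 660 higher and 1323 lower in Viviez at 32-fold or more. Against a fold change of 2, edgeR's glmTreat called 6737 (20.4%), 2647 higher (8.02%) and 4090 lower (12.4%) in Viviez. Each plant rests on 2 individuals: omitting Viviez replicate 1 left 5174 calls and omitting Viviez replicate 2 left 5250, while 7563 were left on omitting N. montana replicate 1 and 7625 on omitting N. montana replicate 2. No transcript was called in the opposite direction in any of these 4 fits, and 41.6% to 58.6% of the 12078 were called again.

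**Figure D2:**
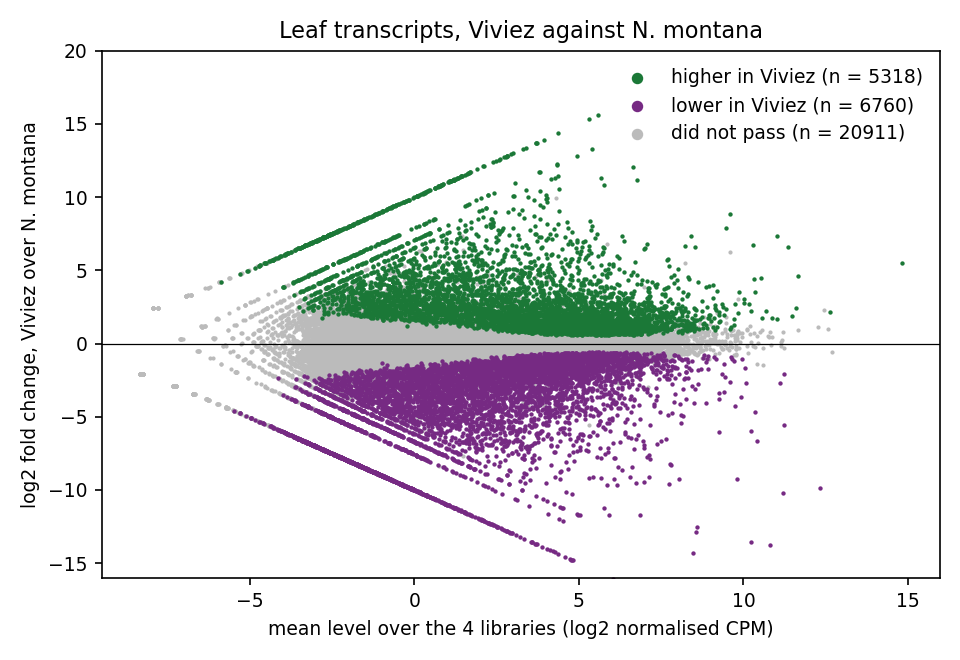
Log2 fold change of Viviez over N. montana (vertical axis) against mean level over the 4 libraries (horizontal axis, log2 normalised CPM), with 1 point per tested transcript. Green points are the 5318 higher and purple points the 6760 lower in Viviez; grey points did not pass. The straight rows of points at the outer edges hold transcripts with few or no reads in a plant, whose fitted fold depends on a small added count, and 108 tested transcripts with no read in the 4 libraries are not drawn.

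The direction of the differences changed with the level of the transcript. Among 10962 transcripts under 1 CPM, 1115 were higher and 2009 lower in Viviez, so that 35.7% of calls were higher. From 1 to 10 CPM the numbers were 1562 higher and 2467 lower (38.8% higher), and from 10 to 100 CPM 2154 and 2047 (51.3% higher). From 100 to 1000 CPM they turned to 468 higher and 225 lower, or 67.5% higher, and above 1000 CPM to 19 and 12. Over 17 other settings of the test, including leaving out each library, the share of calls that were higher in Viviez stayed between 64.5% and 70.2% in the class from 100 to 1000 CPM. In the class under 1 CPM it stayed between 33.4% and 43.2% over the 16 settings that kept such transcripts, and from 1 to 10 CPM between 36.3% and 42%. From 10 to 100 CPM it ran from 45.2% to 52.9%, so that neither direction prevailed under all settings. There, lower calls outnumbered higher ones with glmTreat (815 higher, 988 lower), with the filter of 1 CPM in each library (1844 and 2022), with the replicate number as a block, and without either Viviez library or N. montana replicate 2. The median log2 fold change over all transcripts of a class, called or not, ran from -0.41 under 1 CPM through -0.23, 0.05 and 0.27 to 0.65 above 1000 CPM, beside -0.08 over all tested. The greater concentration of Viviez reads on abundant transcripts, given above, moves with this pattern and its part in it was not tested.

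The median difference between the plants exceeded that between individuals in each class of level. The median absolute log2 difference between a Viviez and an N. montana library was 1.43 under 1 CPM and 1.35 from 1 to 10 CPM. It was 0.67 from 10 to 100 CPM and 0.74 from 100 to 1000 CPM, and 1.66 above 1000 CPM, where there were 63 transcripts. Between individuals the median lay from 0.20 to 0.55 in Viviez and from 0.27 to 0.61 in N. montana over the same classes. Of 20409 transcripts with at least 1 CPM in Viviez, 262 (1.28%) differed by over 4-fold between its individuals, 149 of them higher in replicate 1. In N. montana this held for 617 of 21488 (2.87%), of which 406 were higher in replicate 1. Between-plant difference was larger than both within-plant differences in 69.7% of the 22027 transcripts with a mean of at least 1 CPM.

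**Figure D3:**
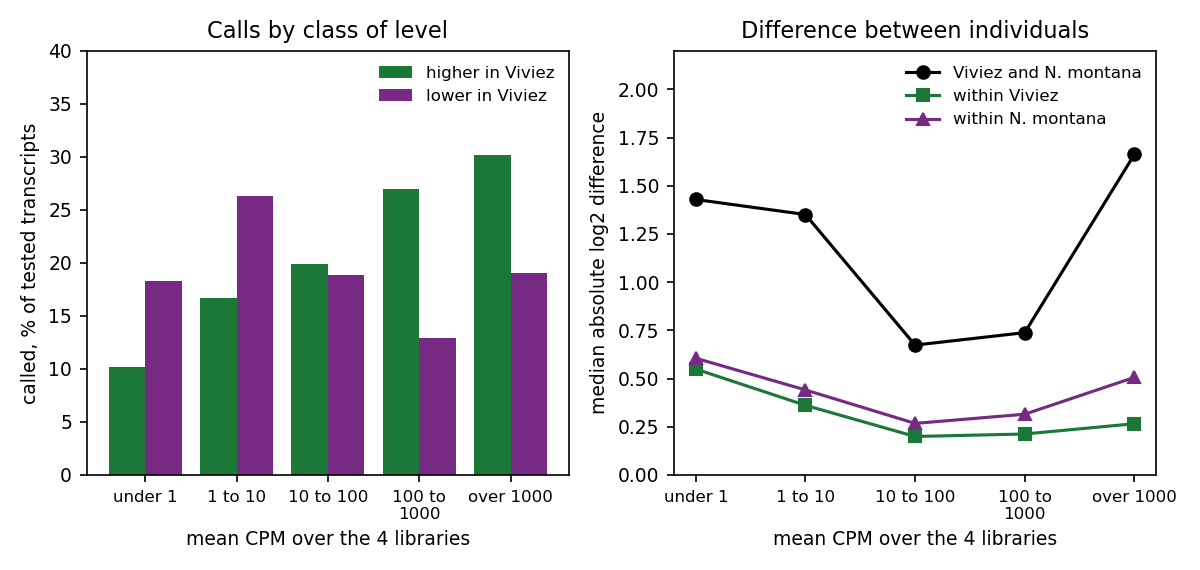
Share of tested transcripts called higher (green) or lower (purple) in Viviez by class of mean CPM over the 4 libraries (left), and median absolute log2 difference in normalised CPM between individuals (right). From 100 to 1000 CPM the higher transcripts outnumber the lower, 468 to 225, and under 1 CPM the lower outnumber the higher, 2009 to 1115. The black line, for Viviez against N. montana, lies above both within-plant lines in each class.

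A smaller part of the leaf transcripts was measured precisely enough to be placed within a narrow range of equality. The 95% interval of the fold change lay wholly within 2-fold either way for 4415 transcripts (13.4%), 3899 of them among the 12649 with at least 10 CPM (30.8% of that class). Transcripts that missed the threshold were not thereby alike. These 20911 had a median absolute log2 fold change of 0.58 and a median interval half-width of 1.19 on the log2 scale. Of them 2058 had a fitted difference of over 4-fold.

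The called transcripts held a large share of the reads of the plant in which they were higher. The 5318 transcripts higher in Viviez took 37.7% and 39.9% of reads in its libraries, against 11.2% in each N. montana library, and 25.1% and 25% in firmiensis. The 6760 lower in Viviez took 5.46% and 5.19% in Viviez, against 28.9% and 26.8% for N. montana, with 9.97% and 10.7% in firmiensis. The excess was held by few transcripts: 77 of the 5318 made up 50% of the 27.6 percentage points by which Viviez exceeded N. montana, and 164 of the 6760 made up 50% of the 22.5 points in the other direction.

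A single transcript, contig_1579, made up 18.7% of the Viviez excess. It was the most abundant transcript of Viviez leaves, with levels of 35657 and 76464 CPM in its individuals against 1421 and 1090 CPM in N. montana, with 3047 and 5230 CPM in firmiensis. The lower Viviez library was still above the highest library of the other plants. The log2 fold change amounted to 5.48 ± 0.79 (SE, edgeR adjusted p = 0.00481), or 4.84 without Viviez replicate 2 and 5.93 without replicate 1. Contig_997 came next by share of reads, at 8972 and 11607 CPM in Viviez against 2251 and 2408 CPM in N. montana, and at 4035 and 5635 CPM in firmiensis. The difference in log2 terms was 2.14 ± 0.44 (SE, edgeR adjusted p = 0.0137), and without Viviez replicate 2 the adjusted p from edgeR was 0.0688.

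In the opposite direction, contig_32541 and contig_34536 held the largest excess of reads in N. montana and also the largest falls in Viviez among called transcripts with at least 10 reads in each of the 4 libraries and a mean of at least 10 CPM. Contig_32541 had 6.27 and 15.4 CPM in Viviez against 14513 and 5910 CPM in N. montana. By mean level it was the most abundant transcript of N. montana leaves. In N. montana replicate 2 another transcript led, with 1.11% of reads against 0.689% for contig_32541. The log2 value of contig_32541 was -9.88 ± 1.84 (SE, edgeR adjusted p = 0.0104). It was -9.37 and -10.66 on leaving out Viviez replicate 1 or 2, where the adjusted p from edgeR was 0.073 and 0.0619, and -9.06 on leaving out N. montana replicate 1. Contig_34536 had 2.73 and 5.13 CPM in Viviez against 5337 and 4029 CPM in N. montana, a log2 fold change of -10.22 ± 1.34 (SE, edgeR adjusted p = 0.00375). Both were low in firmiensis and varied there, at 33.3 and 1.43 CPM for contig_32541 and 14.3 and 1.58 CPM for contig_34536. In both transcripts firmiensis replicate 1 was the higher of its 2 libraries.

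Of 12470 transcripts with at least 10 reads in each of the 4 libraries and a mean of at least 10 CPM, 4764 passed the test, 2577 higher and 2187 lower in Viviez. The largest rise among them was in contig_19032, at 1788 and 1261 CPM in Viviez against 4.25 and 2.29 CPM in N. montana, a rise of 8.86 ± 0.52 on the log2 scale (SE, edgeR adjusted p = 0.000702). Firmiensis stood between the plants, at 138 and 155 CPM. Contig_38766 followed at 62.3 and 98 CPM in Viviez against 0.277 and 0.213 CPM in N. montana, a log2 fold change of 8.34 ± 0.51 (SE, edgeR adjusted p = 0.000724). In firmiensis it stood at 64.1 and 35.2 CPM, so that the ranges of the 2 N. caerulescens plants overlapped. The most abundant transcript of firmiensis leaves, contig_8694, had 6861 and 6757 CPM in Viviez against 1882 and 4201 CPM in N. montana and missed the threshold (log2 fold change 1.16 ± 0.55 SE, edgeR adjusted p = 0.146); with DESeq2 the adjusted p was 0.0256.

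**Figure D4:**
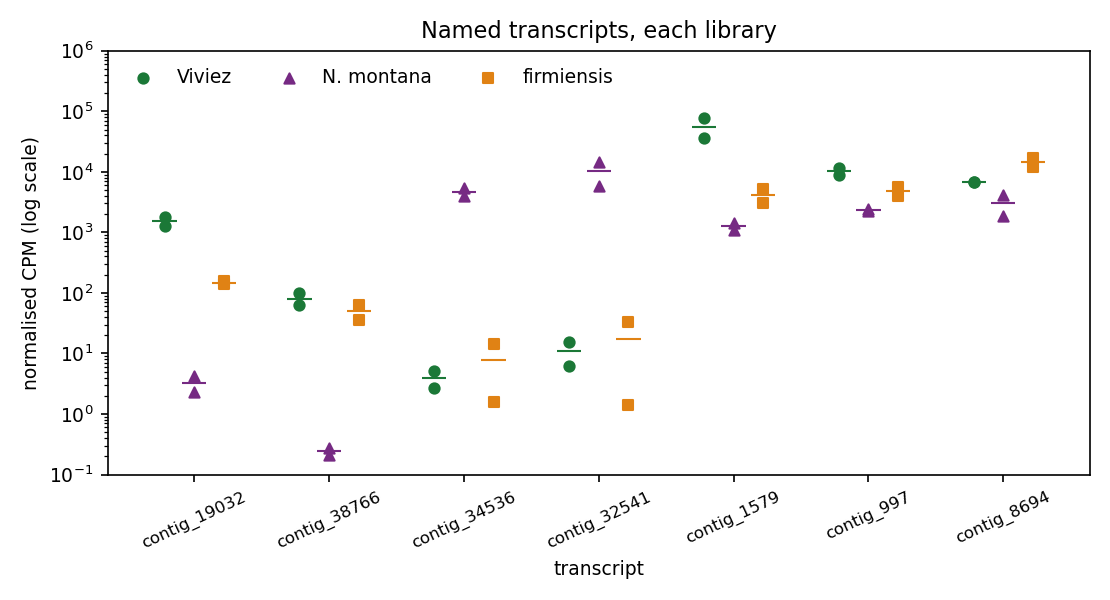
Level in each library of contig_1579, contig_997, contig_32541, contig_34536, contig_19032, contig_38766 and contig_8694 (normalised CPM, log axis), with a point per library and a line at the mean of 2. Contig_1579 reaches 76464 CPM in Viviez against at most 1421 CPM in N. montana, and contig_32541 reaches 14513 CPM in N. montana against at most 15.4 CPM in Viviez.

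Some of the abundant transcripts had close to no reads counted in the other plant. Reads were counted on transcripts assembled from firmiensis, and how well those of each plant align to them was not tested. Of the 724 called transcripts with a mean of at least 100 CPM, 43 differed by at least 64-fold, 13 higher and 30 lower in Viviez, limits that were chosen after the values were seen. On the log2 scale the median size of the change was 6.77 for the 13 and 8.23 for the 30. Between individuals of a plant, 8 of the 30 differed by over 4-fold in Viviez and 2 in N. montana, against 0 of the 13. A Viviez library had under 10 reads in 7 of the 30, and an N. montana library in 2 of the 13. Among the 30, contig_30328 had 657 and 121746 reads in the N. montana individuals. The 30 made up 0.00916 ± 0.00148% of reads in Viviez, 3.94 ± 0.72% in N. montana and 0.0985 ± 0.0172% in firmiensis (SD, n = 2). The 13 made up 1.71 ± 0.168% in Viviez, 0.0158 ± 0.00294% in N. montana and 0.534 ± 0.246% in firmiensis. Leaving out single libraries gave 13 to 16 higher and 25 to 30 lower. Requiring at least 1 CPM in each of the 4 libraries left 11 higher and 14 lower, since that removes transcripts near absence.

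The following examples from these 43 were also singled out after their values were seen. Contig_24137 had 11891 and 11565 reads in Viviez against 6 and 1 in N. montana, and 97 and 118 in firmiensis. Its log2 fold change of 12.06 ± 0.58 (SE, edgeR adjusted p = 0.000565) rests on those 7 reads, and it became 13.78 when N. montana replicate 1 was left out and 11.29 when replicate 2 was. Contig_32960 had 4 and 0 reads in Viviez against 66377 and 43279 in N. montana, and 5 and 8 in firmiensis. The corresponding log2 value was -14.27 ± 0.83 (SE, edgeR adjusted p = 0.000702), or -13.37 without Viviez replicate 2. Without Viviez replicate 1, which leaves no read in Viviez, it was at least 15942-fold lower there against a limit of 3 reads. Contig_23651 had 178 and 152 reads in Viviez against 31997 and 19305 in N. montana, and stood in firmiensis at 24681 and 18060 reads, near the N. montana level. Of the 30 lower transcripts it was the one whose firmiensis level lay nearest to, and here just past, that of N. montana.

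Detection differed more on the N. montana side. With detection set at more than 3 reads over both libraries of a plant, 32098 of 41841 transcripts (76.7%) were detected in both plants, 1494 in Viviez alone, 4101 in N. montana alone and 4148 in neither. The N. montana libraries are the deeper ones. With all libraries thinned to the smallest total the numbers were 31877, 1627, 4020 and 4317. Thinning equalises counted reads and not read pairs, and the part of the excess of even counts in these numbers was not tested. Most of these transcripts were rare, with a median of 0.0644 CPM over the 4 libraries for those in Viviez alone and 0.0877 CPM for those in N. montana alone. Firmiensis, from which the transcripts were assembled, had reads above the same limit for 75% of those in Viviez alone and 60.7% of those in N. montana alone. For transcripts detected in both plants the share was 96.7%, and for those in neither it was 23.6%. How well reads of each plant align to the assembled transcripts was not tested, here or under the rule that follows.

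Under a stricter rule, at least 1 CPM in both individuals of a plant and at most 3 reads over both individuals of the other, 187 transcripts were found in Viviez but not in N. montana, and 464 the reverse. Their median level was 3.48 CPM among the 187 and 2.94 CPM among the 464, and 37 and 81 of them reached 10 CPM. Not a single read was found in the other plant for 98 of the 187 and 245 of the 464. The individuals agreed within 2-fold in 175 of the 187 and in 359 of the 464. Against the limit of 3 reads the median transcript was at least 159-fold higher in Viviez among the 187, and at least 120-fold lower in Viviez among the 464. Comparing single libraries in the same way gave 18 to 50 transcripts between individuals of a plant and 334 to 1045 between the plants. The 187 became 299 and 344 when N. montana replicate 1 or 2 was left out, and the 464 became 776 without Viviez replicate 1. In firmiensis, 82 of the 187 (43.9%) were present by the same rule and 23 (12.3%) were not detected, against 112 (24.1%) and 114 (24.6%) of the 464, with the rest between these limits.

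The third plant showed on which side of each difference a further N. caerulescens plant lay. Firmiensis lay nearer to Viviez than to N. montana, on the scale of mean log2 CPM, in 68.7% of the 5318 transcripts higher in Viviez and 61.8% of the 6760 lower ones, beside 58.3% of all 32989 tested. It lay past the Viviez level in 25% of the higher and 19.3% of the lower transcripts, and past the N. montana level in 8.14% and 14.8%. In the rest it stood between the 2 plants, nearer to Viviez in 43.6% and 42.4% and nearer to N. montana in 23.2% and 23.4%. With firmiensis replicate 1 alone it lay on the Viviez side in 68.5% and 61.7%, and with replicate 2 alone in 67.1% and 59.9%. Of the 43 abundant transcripts with differences of at least 64-fold, firmiensis was nearer to Viviez in 11 of the 13 higher and 26 of the 30 lower ones. These positions use the same Viviez and N. montana libraries as the calls, and are given without a test. Firmiensis also differs in month and site of collection, and the transcripts were assembled from it. It shares with Viviez an excess of even counts from 21 to 200, a range in which none was detectable in N. montana. Transcripts with 2 reads outnumbered those with 1 read in every library. Their ratio was 1.41 and 1.27 in Viviez, 1.15 and 1.03 in N. montana, and 1.52 and 1.43 in firmiensis. The part of these features in the positions was not tested, nor was how well N. montana reads align.

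**Figure D5:**
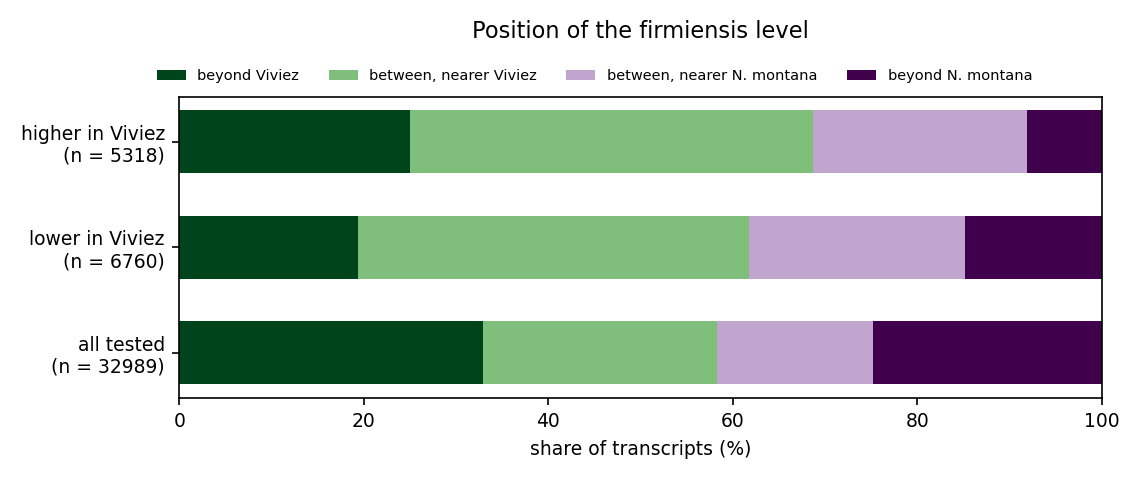
Position of the firmiensis level (mean log2 CPM of 2 libraries) relative to Viviez and N. montana, as a share of transcripts in each set. Dark green and light green together, the Viviez side, make up 68.7% of transcripts higher in Viviez, 61.8% of those lower and 58.3% of all tested.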

How the data were processed

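Leaf polyA RNA of individual field plants was extracted, treated with DNase and made into strand-specific Illumina libraries, per the labels' protocols. The authors deposited raw read counts per transcript of a de novo firmiensis assembly, per the file headers and the series' design text. Counts were whole numbers, and 2 transcripts with empty cells were left out. There were 0 columns from other series. Reads shared by near-identical transcripts were not resolved. Reads may not be independent molecules, so the limit of 3 reads covers the counting error of independent reads only. The tools and filters with which the authors assembled, aligned and counted were not given in the sources used here.

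Differences were tested with edgeR 4.0.16 under R 4.3.3 (filterByExpr, minimum count 10; TMM; glmQLFit and glmQLFTest) on 6 field libraries with a term per plant, so that firmiensis adds to the estimate of spread. The filter left 32989 transcripts with 99.96% of reads. P-values were adjusted over all of them by Benjamini-Hochberg. The SE is the log2 fold change over the root of F. Intervals use the t distribution with each transcript's degrees of freedom from the fit (median 6.18). Log2 CPM use a prior count of 2, and shares of reads use unscaled counts. The CPM used for detection and presence were not scaled for composition. P-values measure the spread between 2 individuals a plant. Alternatives used DESeq2 1.42.0, limma 3.58.1, other scaling and filters, and left-out libraries. The fit was also tested on simulated libraries in which 200 transcripts had been changed. It called 23.9% of those changed 4-fold, 68.2% of those changed 16-fold and 86.2% of those changed 64-fold. Of its calls 6.4% were false. Far fewer transcripts were changed there than were called in the data. Named transcripts were the 2 largest log2 fold changes each way (at least 10 reads in each of the 4 libraries, mean 10 CPM, no overlap), the 2 largest differences in share of reads each way, and the most abundant in each plant; others are marked where they appear. The comparison and these rules were chosen with earlier results of these data known.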

Additional observations from a re-analysis of the deposited data

How the results depend on the processing

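The numbers of transcripts differing, higher and lower in Viviez stayed within 1.5 times under RLE and upper quartile scaling, DESeq2, limma voom, no filter, the 4 libraries alone, and halved or thinned counts, the last pair chosen after seeing the data. They gave 11501 to 14272 differing transcripts. Against a log2 fold change of 1 the numbers were 6737, 2647 and 4090, and with a filter of 1 CPM in each of the 4 libraries, where fewer are tested, 6061, 2910 and 3151. Leaving out single libraries gave 5174 to 12327 differing, 2234 to 5581 higher and 2802 to 6838 lower transcripts, lowest without a Viviez library; a plant is then left with 1 library, assumed to vary like the others. With the replicate number as a block, 9485 differed (4159 higher, 5326 lower). Over all transcripts, same-numbered individuals of Viviez and N. montana did not deviate together (correlation -0.0374). With 1 difference between individuals per plant, this cannot decide whether the numbers pair them. With presence at 5 CPM, 56 transcripts were found in Viviez but not in N. montana and 105 the reverse; with 0 reads as the limit, 98 and 245. Without single libraries they were 212 to 344 and 603 to 776. No named transcript changed direction. Calls were lost without 1 Viviez library for contig_32541 and contig_997, as given with their values. The limit of 3 reads over both libraries of a plant corresponds to 0.0244 CPM for Viviez and 0.0219 for N. montana, without scaling for composition, and lower levels were not detectable.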
